A study of Mus musculus with 6 samples.

Results

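10 genes of the antiviral effector class were followed through control and senescent fibroadipogenic progenitors (FAPs), the mesenchymal cells of skeletal muscle that can form fibroblasts and adipocytes. They were chosen by name as rows of the deposited expression table, and all 10 were present among its 16894 genes: *Mx1*, *Mx2*, *Rsad2*, *Bst2*, *Ifitm1*, *Ifitm2*, *Ifitm3*, *Ifi44*, *Eif2ak2* and *Rtp4*. The FAPs came from limb muscle of C57BL/6 mice of both sexes, 3 to 6 months old, and were selected with magnetic beads as cells negative for CD45, CD31 and α7-integrin and positive for SCA-1. Senescent FAPs had received 20 μM of etoposide, a topoisomerase poison that breaks DNA, for 48 h and had then been kept 5 days in normal medium. Control FAPs are labelled non-senescent, and what they received in place of etoposide is not given in the sources used here. Polyadenylated RNA of 3 control and 3 senescent libraries was sequenced, with 41412179 to 59912520 reads on genes per library. The labels number the libraries but do not say whether they came from separate mice, so the p values below measure the spread between libraries, which may be technical.

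Type I and type III interferons act through their receptors, JAK kinases and transcription factors that bind an element called the ISRE in the promoters of their target genes. The 10 genes are classical targets of that route, and their products act at successive steps of a viral life cycle. IFITM proteins sit in membranes and hinder fusion of the viral and cellular membranes, Mx proteins are dynamin-like GTPases that act on incoming viral nucleoproteins, viperin (*Rsad2*) makes a nucleotide that terminates viral RNA chains, PKR (*Eif2ak2*) halts translation when it binds double-stranded RNA, and tetherin (*Bst2*) holds budding virions at the cell surface. C57BL/6 mice carry disrupted *Mx* genes, and RefSeq lists both *Mx1* and *Mx2* as transcribed pseudogenes.

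The promoter sequences are shown first because interferon-induced genes are known to be switched on through elements in their promoters. RefSeq windows (assembly GRCm38.p6) that run from 250 bases before to 50 bases after a transcription start were found for 7 of the 10 genes, all except *Mx1*, *Mx2* and *Rtp4*. The core of the ISRE was searched on both strands as GAAA, any 2 bases and GAAA again (TTTC, any 2 bases and TTTC on the opposite strand). It lay in the windows of 5 of the 7 genes, *Rsad2*, *Bst2*, *Ifitm2*, *Ifitm3* and *Eif2ak2*, and in 1131 of all 32851 windows of that length, or 3.44%. The windows of *Ifitm1* and *Ifi44* held no match to these letters. Genes with and without the core were found both among those that rose in senescent FAPs and among those that did not pass. *Ifi44*, without a core, had the largest log2 fold change of the 10, 3.15, on a scale that holds down genes with few reads. By the plain ratio of group means *Ifi44* stood at 12.7, below *Rsad2*, with a core, at 32.7. *Ifitm2*, with a core, did not pass (0.21, adjusted p = 0.123, limma). In GENCODE the *Ifitm1* gene begins at chr7:140967221, before its window. The core of the GAS element, a second promoter element of interferon signaling, was searched as TTCNNNGAA, which reads the same on both strands. It lay in the windows of 3 of the 7, *Bst2*, *Ifitm3* and *Eif2ak2*, and in 8.3% of all windows. A match is a description of the letters and not evidence that a factor was bound.

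3 stretches upstream of the start are given in full, 2 of genes that rose in senescent FAPs and that of *Ifitm1*, which did not pass the test. Each runs 5′ to 3′ on the strand of its gene and ends at the base before the start, with the ISRE core in capitals. That of *Rsad2* lies at chr12:26456453-26456702 on the minus strand, that of *Bst2* at chr8:71537473-71537722 on the minus strand and that of *Ifitm1* at chr7:140967826-140968075 on the plus strand.
Rsad2: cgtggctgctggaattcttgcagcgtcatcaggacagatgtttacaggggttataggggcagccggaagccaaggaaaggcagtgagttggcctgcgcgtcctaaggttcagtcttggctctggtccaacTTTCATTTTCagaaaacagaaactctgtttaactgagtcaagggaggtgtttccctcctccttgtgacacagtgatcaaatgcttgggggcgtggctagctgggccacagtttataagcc
Bst2: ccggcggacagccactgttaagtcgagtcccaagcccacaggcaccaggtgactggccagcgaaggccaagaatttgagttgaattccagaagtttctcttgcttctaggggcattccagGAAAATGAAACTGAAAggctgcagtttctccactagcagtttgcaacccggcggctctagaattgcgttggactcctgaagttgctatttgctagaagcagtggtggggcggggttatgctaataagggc
Ifitm1: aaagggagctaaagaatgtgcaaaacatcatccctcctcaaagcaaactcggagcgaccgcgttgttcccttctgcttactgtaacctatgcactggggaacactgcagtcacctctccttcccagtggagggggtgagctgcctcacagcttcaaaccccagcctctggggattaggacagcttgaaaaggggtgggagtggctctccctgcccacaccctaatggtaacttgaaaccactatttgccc

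The *Rsad2* core lay at positions -120 to -111 from the start and was read on the strand opposite to the gene. *Bst2* held a pair of cores that overlapped each other, at -130 to -121 and at -124 to -115, and a GAS core at -136 to -128 that overlapped the first of them. In the other 3 genes the cores lay nearer to the start, as 30-base stretches with the same capitals show. These lie on the minus strand, at chr7:140955988-140956017 for *Ifitm2*, chr7:141010715-141010744 for *Ifitm3* and chr17:78882535-78882564 for *Eif2ak2*.
Ifitm2: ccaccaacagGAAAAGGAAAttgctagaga
Ifitm3: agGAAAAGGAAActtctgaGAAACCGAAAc
Eif2ak2: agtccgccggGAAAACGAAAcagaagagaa

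The *Ifitm2* core lay at -46 to -37. Both *Ifitm3* cores lay just after the start, at 3 to 12 and 20 to 29, and the GAS core of that gene, at 14 to 22, overlapped the second of them. The *Eif2ak2* core lay at 19 to 28, and its GAS core at -178 to -170.

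Senescent FAPs had more RNA of most of these genes. With limma on log2(CPM + 0.5) and a Benjamini-Hochberg adjusted p under 0.05 over the 14776 genes tested, 8 of the 10 were higher in senescent FAPs, beside 21.8% of all genes tested, while 24.3% of all genes were lower. CPM here gives reads relative to the library size after the scaling between libraries. 7 of the 10 also rose past the threshold of the study, an unadjusted p under 0.01 with a log2 fold change above 1, which 6.93% of all genes did, while 3.9% passed it as lower genes and none of the 10 did so. The study applied that threshold to edgeR results, and here it was applied to limma on log2(CPM + 0.5), so the counts are not directly comparable. In 8 genes every senescent library lay above every control library, as in 26.5% of all genes, and in *Ifitm1* and *Ifitm2* the groups overlapped. None of the 10 was lower by limma, edgeR or DESeq2 at an adjusted p under 0.05, and 0 were lower at an unadjusted p under 0.05 in limma. The median log2 fold change was 1.87 over the 10 genes and -0.03 over all genes tested. *Mx1*, *Mx2* and *Rsad2* passed the filter on low values, at least 0.5 CPM in at least 3 libraries, only through the senescent libraries and so had to differ. They are among the 8 and 7 genes counted above and are part of the median of 1.87. Of the other 7 genes, 5 were higher, with a median log2 fold change of 1.25, beside 19.5% of all genes that did not pass in this way. When libraries were divided by their totals alone, the median of all genes moved to 0.17 and 33.8% of genes were higher and 13.1% lower. Calls therefore depend on the scaling, also for fold changes larger than that shift, such as the -0.36 of *Ifnar1* described below. In bulk RNA, more cells that express a gene and more RNA per cell cannot be told apart.

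**Figure D1:**
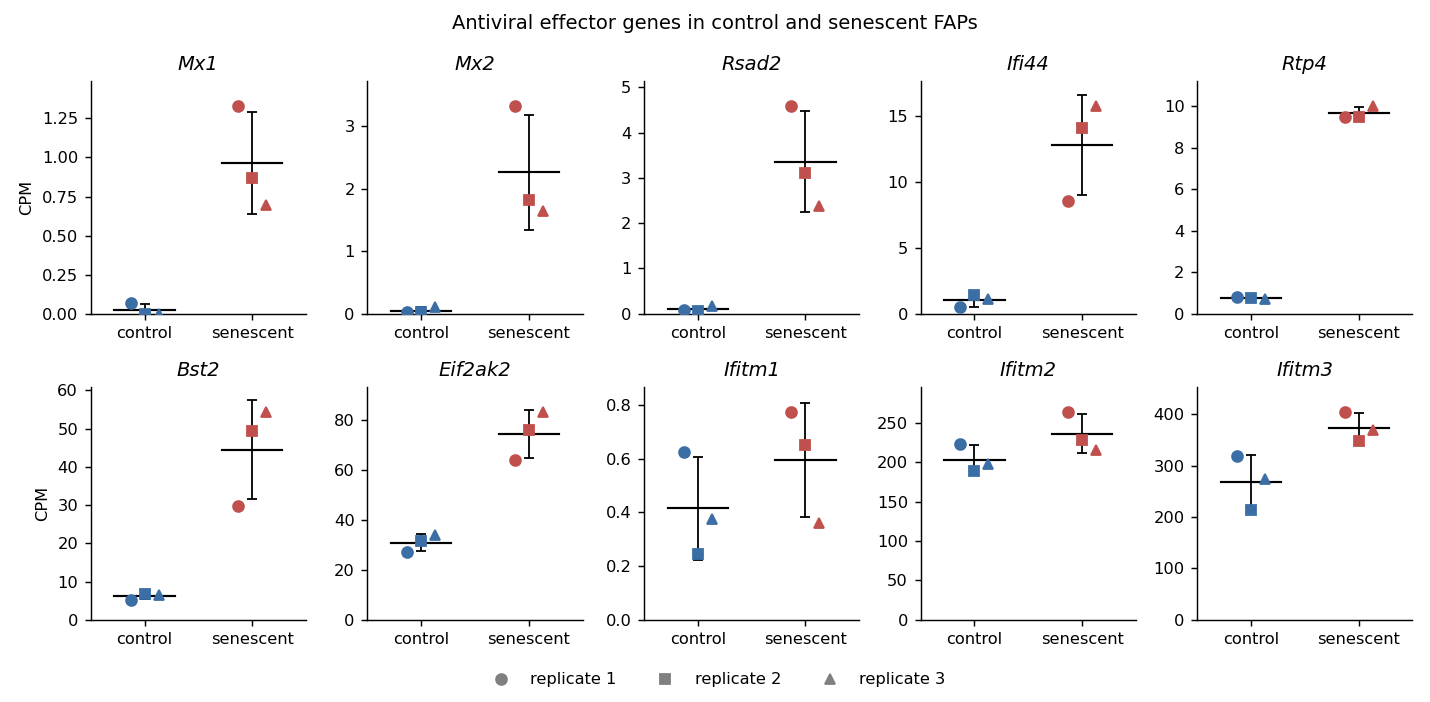
Expression of the 10 antiviral effector genes in each library, in CPM on a linear axis that starts at 0 and differs between panels. Points are single libraries (3 control, 3 senescent), bars are group means and lines the SD. The senescent points lie above all control points in every panel except those of *Ifitm1* and *Ifitm2*.

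**Figure D2:**
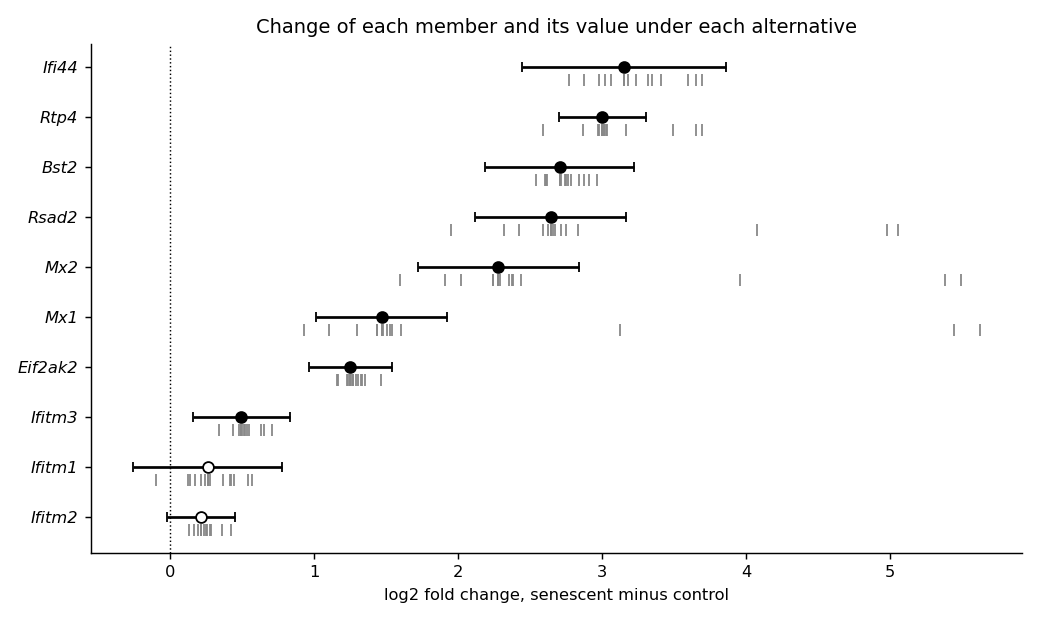
Log2 fold change of each gene, senescent minus control on the log2(CPM + 0.5) scale, with its 95% confidence interval from limma. *Ifi44* and *Rtp4* lie farthest to the right, at 3.15 and 3.00, and the intervals of *Ifitm1* and *Ifitm2* include 0.

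The 3 IFITM genes lie within one cluster on chromosome 7. *Ifitm2* and *Ifitm3* were the most abundant of the 10 and *Ifitm1* was scarce, and the 3 had the smallest log2 fold changes. *Ifitm3* (chr7:141009586-141010770, minus strand, mm10), the member best known for restricting influenza virus, stood at 319, 213 and 273 CPM in control libraries 1, 2 and 3 and at 404, 347 and 369 CPM in senescent libraries 1, 2 and 3. The lowest senescent library lay above the highest control library. The means were 268 ± 52.8 and 373 ± 28.9 CPM (SD, n = 3 each), and the log2 fold change was 0.49 with a standard error of 0.15 (adjusted p = 0.0266, limma). That call was lost when control 3, senescent 1, senescent 2 or senescent 3 was left out, with log2 fold changes of 0.52, 0.44, 0.55 and 0.50 and adjusted p of 0.06, 0.0767, 0.0549 and 0.0744 in limma. With the replicate number as a block and all libraries kept, the adjusted p was 0.0044 in limma.

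*Ifitm2* (chr7:140954837-140955987, minus strand), a close paralog that acts mainly on viruses entering through endosomes, stood at 224, 189 and 198 CPM in control libraries and at 264, 229 and 216 CPM in senescent libraries. Senescent library 3 lay below control library 1. The log2 fold change was 0.21 with a 95% confidence interval from -0.02 to 0.45 (adjusted p = 0.123, limma). With the replicate number as a block, the same change had an adjusted p of 0.0428 in limma, and *Ifitm2* then counted among the genes that rose. It also passed with quantile normalization, at 0.36 and an adjusted p of 0.0254 in limma, and with library totals alone, at 0.43 and an adjusted p of 0.00954 in limma. Relative to the median of all genes under each scaling, the change was 0.25 as deposited, 0.38 with quantile normalization and 0.26 with library totals.

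*Ifitm1* (chr7:140967221-140969825, plus strand), whose product sits mainly at the plasma membrane, was near the lower end of what these libraries measured. It stood at 0.625, 0.247 and 0.377 CPM in control libraries, from 13 to 28 reads, and at 0.774, 0.652 and 0.36 CPM in senescent libraries, from 16 to 39 reads. The groups overlapped. The log2 fold change was 0.26 with an interval from -0.26 to 0.78 (adjusted p = 0.37, limma), and it turned to -0.10 with quantile normalization, with an adjusted p of 0.748 in limma. A difference was not detectable at this depth.

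Whether the paralogs changed unequally was tested by the ratio of their values within each library. The log2 ratio of *Ifitm2* to *Ifitm3* was -0.38 ± 0.18 in control and -0.66 ± 0.10 in senescent libraries (SD, n = 3 each), a difference of -0.28. The 2 groups did not overlap, and the two-sided exact permutation test gave p = 0.1, the smallest that 3 against 3 libraries allow, or 0.15 after adjustment over the 3 ratios tested. The ratio of *Ifitm1* to *Ifitm3* differed by -0.23, with p = 0.2 by the same exact permutation test and 0.2 after adjustment. *Ifitm2* is also the gene whose reads are hardest to assign. Of its 50-base stretches in the GENCODE transcripts, 48.5% were shared with another gene, 36.1% with the predicted gene *Gm45717* and 3.3% with *Ifitm3*, while *Ifitm3* shared 10.02% and *Ifitm1* 5.02%. The value of *Ifitm2* therefore depends on how the authors' counting treated such reads, which was not tested.

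*Mx1*, *Mx2* and *Rsad2* were close to 0 in control FAPs and higher in senescent FAPs. They passed the filter only through the senescent libraries, so the limma p values given for them do not count as tests of a difference. *Mx1* (chr16:97447035-97462907, minus strand) stood at 0.067, 0 and 0 CPM in control libraries, which are 3, 0 and 0 reads, and at 1.33, 0.87 and 0.698 CPM in senescent libraries, which are 67, 52 and 31 reads. The counts of 0 allow up to 3 reads, or 0.0570 CPM in control 2 and 0.0539 CPM in control 3, counting error only. On the log2 scale the change was 1.47 with a standard error of 0.20 (adjusted p = 0.00108, limma), on a scale where the pseudocount of 0.5 CPM holds down the change of such low genes. Over the pooled reads, 150 against 3, the ratio relative to the scaled library sizes was 49.5 with an exact 95% interval from 16.6 to 243, counting error only.

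*Mx2* (chr16:97535308-97560900, plus strand) lies beside *Mx1* in the opposite direction. It stood at 0.0223, 0.019 and 0.108 CPM in control libraries and at 3.32, 1.81 and 1.64 CPM in senescent libraries, which were all far above the controls. The log2 fold change was 2.28 with a standard error of 0.24 (adjusted p = 0.000452, limma), and the ratio of pooled reads, 348 against 8, was 43.1 with an exact interval from 21.6 to 101. The log2 ratio of *Mx1* to *Mx2* was -0.07 ± 0.20 in control and -0.88 ± 0.16 in senescent libraries (exact permutation p = 0.1, adjusted 0.15). In control libraries that ratio is set mostly by the pseudocount, since the reads are so few. The genes share 159 of their 50-base stretches, 3.86% of those of *Mx1* and 4.38% of those of *Mx2*.

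*Rsad2* (chr12:26442746-26456452, minus strand), the gene of viperin, stood at 0.0893, 0.057 and 0.162 CPM in control libraries, from 3 to 9 reads, and at 4.59, 3.1 and 2.39 CPM in senescent libraries, from 106 to 231 reads. The lowest senescent library held more than 10 times the reads of the highest control library. The log2 fold change was 2.64 with a standard error of 0.23 (adjusted p = 0.000254, limma), and the ratio of pooled reads, 522 against 16, was 32.3 with an exact interval from 19.7 to 57.0. None of its 50-base stretches was shared with another gene. Its neighbour *Cmpk2*, which encodes a nucleotide kinase that supplies viperin with substrate, lies 12.7 kb away and stood at 0.128 ± 0.034 and 1.68 ± 0.29 CPM. It too passed the filter only through the senescent libraries and so had to differ.

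*Bst2*, *Eif2ak2*, *Ifi44* and *Rtp4* were measured in both groups with more reads. *Bst2* (chr8:71534255-71537456, minus strand), the gene of tetherin, stood at 5.29, 6.75 and 6.59 CPM in control libraries and at 29.8, 49.3 and 54.3 CPM in senescent libraries. The groups were far apart, and senescent library 1 was well below the other 2. The means were 6.21 ± 0.80 and 44.5 ± 12.9 CPM, a ratio of 7.16, and the log2 fold change was 2.71 with a standard error of 0.22 (adjusted p = 0.000235, limma).

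*Eif2ak2* (chr17:78852564-78882573, minus strand), the gene of the kinase PKR, already had 27.1, 31.5 and 34.1 CPM in control libraries and had 64.0, 75.9 and 83.1 CPM in senescent libraries. Every senescent library lay above every control library. The mean rose 2.41-fold, and the log2 fold change was 1.25 with a standard error of 0.12 (adjusted p = 0.000377, limma).

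*Ifi44* (chr3:151730922-151749960, minus strand), an interferon-induced gene whose product is less well understood, stood at 0.491, 1.41 and 1.13 CPM in control libraries and at 8.54, 14.1 and 15.8 CPM in senescent libraries. Library 1 was the lowest in each group, and the groups did not overlap. The log2 fold change of 3.15 with a standard error of 0.31 (adjusted p = 0.000361, limma) was the largest of the 10 on this scale.

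*Rtp4* (chr16:23520291-23614222, plus strand), a receptor transporter protein that also restricts viruses, was the least variable. It stood at 0.826, 0.761 and 0.718 CPM in control libraries and at 9.49, 9.47 and 10.01 CPM in senescent libraries, where the highest was 1.06 times the value of library 1. The means were 0.768 ± 0.054 and 9.66 ± 0.31 CPM, a ratio of 12.6. Its rise of 3.00 on the log2 scale had a standard error of 0.13 (adjusted p = 4.55e-05, limma). *Rtp4* overlaps *Masp1* in the annotation and shares 11.6% of its 50-base stretches with the predicted gene *Gm45338*. *Masp1* itself rose from 33.9 to 73.4 CPM (log2 fold change 1.16, adjusted p = 0.00548, limma), and the sources used here do not give the strand setting of the counting.

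Levels were compared between genes per kilobase of annotated exon. In control FAPs *Ifitm3* and *Ifitm2* had 396 and 311 CPM per kb, and their ranges overlapped. *Bst2* and *Eif2ak2* followed at 6.88 and 6.04 CPM per kb, also overlapping, then *Ifitm1* and *Rtp4* at 0.381 and 0.36 CPM per kb, overlapping again, and *Ifi44* at 0.165 CPM per kb. *Rsad2*, *Mx2* and *Mx1* were lowest, between 0.0059 and 0.0237 CPM per kb, each overlapping the next.

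In senescent FAPs the order was *Ifitm3* (551 CPM per kb), *Ifitm2* (361), *Bst2* (49.2), *Eif2ak2* (14.5), *Rtp4* (4.53) and *Ifi44* (2.09), each apart from the next. *Rsad2* (0.774), *Mx2* (0.624), *Ifitm1* (0.544) and *Mx1* (0.255 CPM per kb) came last, each overlapping its neighbour in the order. *Ifitm1*, which in control FAPs stood above *Rtp4*, *Ifi44*, *Rsad2* and both *Mx* genes by its mean, stood above only *Mx1* in senescent FAPs. The summed CPM of the 10 genes was 443 to 577 in control and 732 to 790 in senescent libraries. *Ifitm2* and *Ifitm3* made up 92.3% of that sum in control and 80.4% in senescent FAPs, while the sum of the 8 others went from 39.5 to 148 CPM.

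Among the senescent libraries the genes that rose did not share one order. *Mx1*, *Mx2* and *Rsad2* were highest in library 1 and lowest in library 3, by ratios of 1.91, 2.02 and 1.92. *Bst2*, *Ifi44* and *Eif2ak2* were highest in library 3 and lowest in library 1, by ratios of 1.82, 1.86 and 1.30. Of the 8 genes that rose, 4 were highest in library 1, 0 in library 2 and 4 in library 3. Among the 28 other antiviral effectors that rose (a list described below) the counts were 5, 5 and 18, and among all 3218 genes that rose they were 692, 1038 and 1488. These groupings were seen in the values and were not tested.

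**Figure D3:**
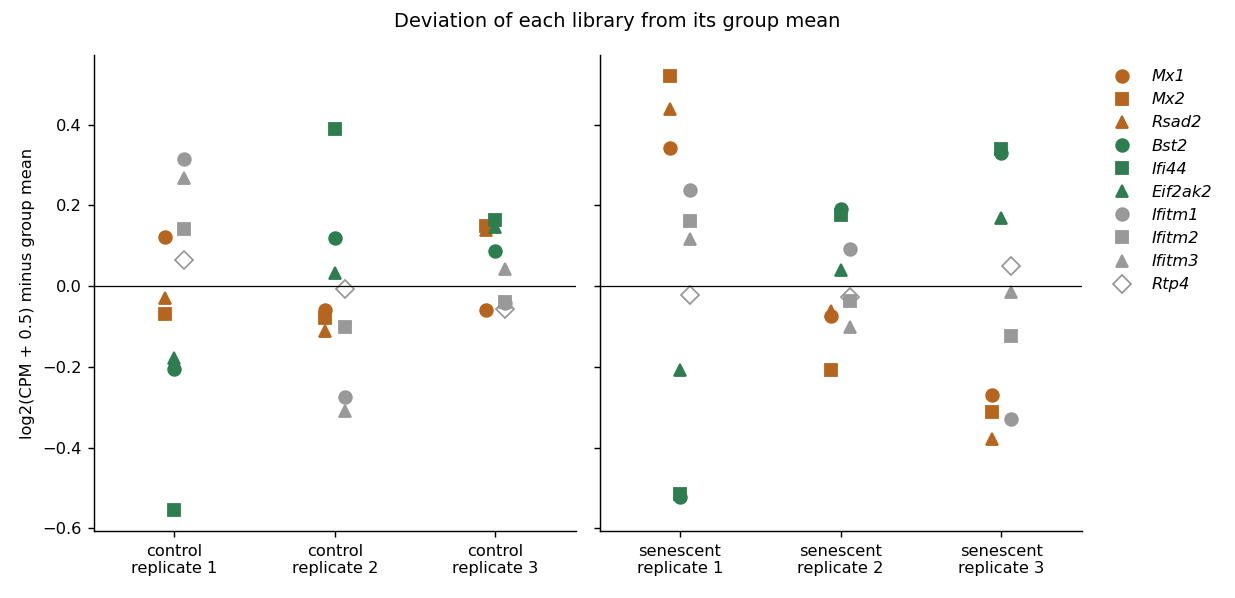
Deviation of each library from the mean of its own group on the log2(CPM + 0.5) scale, for each of the 10 genes (3 control and 3 senescent libraries). Among senescent libraries, library 1 is above the group mean for *Mx1*, *Mx2* and *Rsad2*, by 0.34 to 0.52, and below it for *Bst2* and *Ifi44*, by values of -0.52.

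The nearest tested protein-coding gene on each side of the 10 gave 14 neighbours outside the set. Of these 5 were higher in senescent FAPs, beside 21.8% of all genes tested. The other 9 did not pass the test, and the median log2 fold change of the 14 was 0.02. Without *Cmpk2*, 4 of 13 were higher, beside 19.5% of all genes that did not pass the filter only through the senescent libraries. Besides *Cmpk2* and *Masp1*, the higher neighbours were *Bace2*, a protease gene 4.1 kb from *Mx1* (2.07 to 6.04 CPM, log2 fold change 1.39), *Ptgfr*, a prostaglandin receptor gene 48.7 kb from *Ifi44* (2.97 to 7.53 CPM, 1.22), and *Cebpzos*, 33.9 kb from *Eif2ak2* (9.24 to 12.4 CPM, 0.41). *Gpatch11*, only 2.2 kb from *Eif2ak2*, stood at 15.5 and 15.1 CPM. *Mvb12a*, 5.4 kb from *Bst2*, stood at 22.3 and 17.0 CPM (adjusted p = 0.0897, limma). *Pgghg*, 7.2 kb from *Ifitm2*, stood at 34.2 and 30.5 CPM (adjusted p = 0.153, limma).

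The 5 genes whose profile over the 6 libraries was most like the mean profile of the 10 were *Mab21l3*, *Rnf213*, *Bglap2*, *Il13ra2* and *Adh1*, by root mean square distances of 0.07 to 0.083 on the log2 scale. *Rnf213*, a large ubiquitin ligase gene, had the most RNA of these and went from 34.5 to 113 CPM (log2 fold change 1.69). With so few libraries, likeness mostly reflects a similar difference between the groups.

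Most of the other antiviral effectors were higher in senescent FAPs as well. Of 32 tested, 28 were higher, beside 21.8% of all genes, 2 were lower and 2 did not pass, with a median log2 fold change of 1.74. 6 of them (*Ifit3b*, *Oas1b*, *Oas2*, *Oas3*, *Cmpk2* and *Ddx60*) had passed the filter only through the senescent libraries and so had to differ. Of the other 26, 22 were higher, beside 19.5% of all genes that did not pass in this way, and 2 were lower, with a median of 1.53. The largest changes were those of *Ifit3* and *Ifit1*, from 1.64 to 46.3 CPM (4.44) and from 1.61 to 42.6 CPM (4.35). The lowest was *Isg20*, an exonuclease gene, from 12.6 to 8.34 CPM (-0.57, adjusted p = 0.0441, limma), and its groups overlapped. The other gene of this list that fell was *Samhd1*, which depletes nucleotides, from 77.8 to 53.3 CPM (-0.54), named after its value was seen. With median-of-ratios scaling or library totals alone, and without control 1, control 3, senescent 2 or senescent 3, 1 gene of the list was lower.

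The genes that signal to these effectors moved in both directions. Over all genes tested, 21.8% were higher and 24.3% lower. Of 13 tested receptor, JAK, STAT and IRF genes, 7 were higher, 1 was lower and 5 did not pass (median 0.35). *Irf7*, the master regulator of the interferon genes, went from 2.46 ± 0.97 to 27.6 ± 5.86 CPM (log2 fold change 3.28), and *Stat2*, a subunit of the complex that binds the ISRE, from 14.3 ± 2.93 to 36.5 ± 2.69 CPM (1.34). *Ifnar1*, a chain of the type I receptor, fell from 109 to 85.1 CPM (-0.36, adjusted p = 0.00812, limma), a call that was lost with library totals alone, where 10 genes were higher and 0 lower. Without control 2, 2 were lower. Of 10 nucleic acid sensors and adaptors, 5 were higher and 2 lower (median 0.82), led by *Zbp1*, a sensor of Z-form nucleic acids, from 1.53 to 20.9 CPM (3.40), and *Ifih1*, the gene of the RNA sensor MDA5, from 3.30 to 18.1 CPM (2.28). The lowest was *Mb21d1*, the gene of the DNA sensor cGAS, which fell from 4.36 to 2.24 CPM (-0.84, adjusted p = 0.00921, limma).

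Of 4 feedback inhibitors tested, *Usp18*, which acts at the type I receptor, rose from 1.28 to 19.6 CPM (3.54), *Socs3* fell from 61.6 to 27.5 CPM (-1.12) and the other 2 did not pass. *Pias1* was among the latter, at 27.8 and 31.9 CPM. With 1 of 4 higher and 1 lower, the counts were near the 21.8% and 24.3% of all genes tested. Without control 2 or senescent 1, 2 inhibitors were lower. With quantile normalization 2 were higher and 2 lower, and with library totals alone 2 were higher and 1 lower. None of the 10 interferon genes looked for was listed in the table, in which every gene has at least 8 reads in at least 3 libraries.

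The rise of *Eif2ak2* was set beside the other kinases of the translation factor eIF2 and the partners of PKR. The list also held *Eif2s1*, *Ppp1r15a*, *Ppp1r15b*, *Atf4* and *Ddit3*, which are neither. Of the 11 genes tested, 7 were lower, beside 24.3% of all genes, and 4 did not pass (median -0.38). With quantile normalization 6 were lower and 1 higher, and with library totals alone 4 were lower and 1 higher. The lowest was *Atf4*, the transcription factor translated when eIF2 is phosphorylated, from 320 ± 46.4 to 188 ± 27.4 CPM (log2 fold change -0.77, adjusted p = 0.00368, limma). *Ddit3*, a target of that factor, stood at 40.3 and 43.2 CPM, and *Eif2ak1*, the heme-regulated kinase, at 51.7 and 57.9 CPM (adjusted p = 0.609 and 0.122, limma). *Eif2ak3* and *Eif2ak4*, the kinases PERK and GCN2, fell by 0.46 and 0.51 on the log2 scale, named after their values were seen.

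Structural relatives of the 10 were also examined. Of 16 looked for, 9 were listed and tested, 2 were higher and 7 did not pass (median 0.11), a share near the 21.8% of all genes. *Dnm1*, a dynamin gene related to the *Mx* genes, rose from 43.0 to 61.2 CPM (0.50, adjusted p = 0.0284, limma), and *Mfn2*, a mitochondrial fusion GTPase gene, from 119 to 143 CPM (0.26, adjusted p = 0.031, limma), named after its value was seen. *Dnm3* had 3.24 and 4.37 CPM, and *Dnm2* 119 and 113 CPM. The count of 2 became 4 with library totals alone, 1 without control 1, senescent 1 or senescent 3, and 0 without control 3 or senescent 2.

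**Figure D4:**
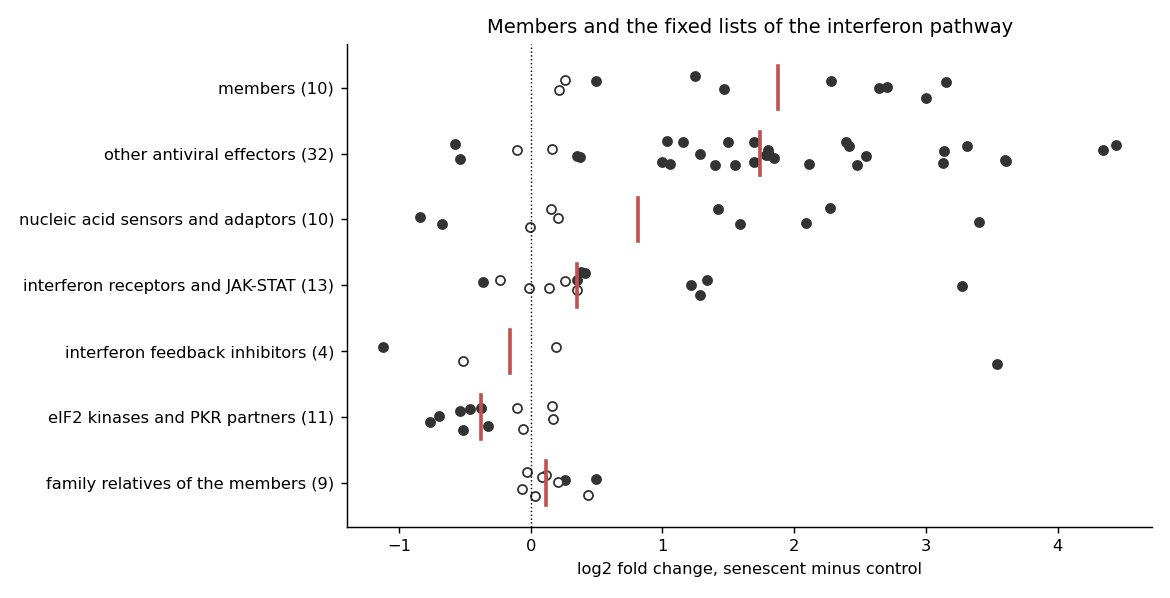
Log2 fold change (senescent minus control, log2(CPM + 0.5) scale) of every tested gene in the 10 antiviral effectors and in each list of related genes, 1 point per gene, with the median of each list marked. The medians run from 1.87 for the 10 genes and 1.74 for the other antiviral effectors down to -0.38. That lowest median is of the list named eIF2 kinases and PKR partners, which also holds related genes. The first 2 include genes that passed the filter only through the senescent libraries, and without those genes they are 1.25 and 1.53.

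The labelled cell type was checked against its markers. All 8 FAP markers were listed and tested, of which 4 were higher in senescent FAPs, 1 was lower and 3 did not pass. For these and the other markers, 21.8% of all genes tested were higher and 24.3% lower. *Pdgfra* stood at 192 and 218 CPM and *Ly6a*, the gene of SCA-1, at 372 and 625 CPM. Besides *Ly6a*, the higher markers were *Dcn* (62.3 to 197 CPM), *Cd34* (22.5 to 70.1 CPM) and *Lum* (0.535 to 3.39 CPM). The collagen gene *Col1a1* fell from 15500 to 3120 CPM (log2 fold change -2.29, adjusted p = 0.0015, limma). The sum over the list was 17000 to 35600 CPM in control and 9930 to 14300 CPM in senescent libraries. *Col1a1* and *Col3a1* (10000 and 6470 CPM, adjusted p = 0.229, limma) made up most of that sum. *Ptprc*, which encodes CD45, and the macrophage marker *Adgre1* were not listed, and 7 of 12 leukocyte markers were. Of the 5 leukocyte markers tested, 4 were higher in senescent FAPs (*Cd53*, *Cd68*, *Lyz2* and *Itgam*, the last of which passed the filter only through the senescent libraries), and the sum over the list went from 11.3 to 14.2 CPM in control to 27.3 to 33.4 CPM in senescent libraries. Leukocytes also express interferon-induced genes, and the part of these transcripts in the results above was not tested. Of the endothelial markers 4 of 6 were listed, with sums of 18.0 to 38.4 CPM in control and 22.2 to 29.2 CPM in senescent libraries. *Pecam1*, the gene of the CD31 used in the selection, rose from 0.706 to 1.70 CPM (adjusted p = 0.00897, limma), *Kdr* fell from 4.05 to 2.20 CPM (adjusted p = 0.00989, limma) and *Tek* made up most of the sum. Of the myogenic markers 2 of 6 were listed, with sums of 14.3 to 19.3 CPM and 23.4 to 30.2 CPM, and *Pax7*, *Myf5*, *Myod1* and *Myog* were not listed. *Itga7*, the gene of the α7-integrin used in the selection, rose from 11.1 to 20.2 CPM (adjusted p = 0.00771, limma). The part of endothelial and myogenic transcripts in the results was not tested either.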

How the data were processed

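Libraries were prepared from FAP RNA with a stranded mRNA kit and sequenced on an Illumina instrument. The authors counted reads per gene, scaled them with edgeR (3.10, R 3.6.0, build mm10 per the submitters' processing notes) and deposited a normalized signal, the CPM of the effective library size. Aligner, counting tool and strand setting are not given in the sources used here. Of 16895 lines, 1 names no gene (0.00409% to 0.00699% of reads) and was left out. Values were whole multiples of 1 read (tolerance 0.01 read) in 100% of cases, and 1 read was worth 0.0167 to 0.0225 CPM. Each replicate pair differed beyond sampling noise (chi-square per gene 15.1 to 163).

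limma (3.58.1, R 4.3.3) was fitted with a variance trend to log2(CPM + 0.5) of the 14776 genes that reached 0.5 CPM in 3 or more libraries, two-sided, with Benjamini-Hochberg adjustment. The plan assumed CPM, and its test was kept for this signal. Same-numbered control and senescent libraries deviated together (correlations 0.537, 0.308 and 0.207 over genes). Differently numbered ones gave -0.357 to 0.153, the highest for control 2 with senescent 3. Deviations within a group are bound to each other, so these correlations are not independent. The labels state no pairing, so the main fit and its p values left it out. A fit with the replicate number as a block, a pairing taken from the data alone, was an alternative. The other alternatives were pseudocounts of 0.1 and 1, no filter or 2 CPM, median-of-ratios, quantile and library-total scaling, each library left out, and edgeR (4.0.16) and DESeq2 (1.42.0) on recovered reads. Scripts were tested on simulated data. Ratios of pooled reads and floors cover counting error only.

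Named were all members, the 2 largest and 1 smallest change in each list, the nearest tested protein-coding neighbours and the 5 most alike profiles, besides the cell type markers and genes said to be named after their values were seen. Members and lists were chosen with earlier results of these data known. Coordinates and exon lengths are from GENCODE M21 and promoters from RefSeq. A planned comparison of protein sequences was not made.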

Additional observations from a re-analysis of the deposited data

How the results depend on the processing

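Across 16 alternatives, 490 of 533 values kept their direction and side of the threshold or moved little. Part of that total was fixed in advance. The counts of the interferon genes were 0 in every setting because none was listed. *Mx1*, *Mx2* and *Rsad2*, also in the total, passed the filter only through the senescent libraries. Of the 10 genes, 6 to 9 were higher and 0 lower, and 5 to 7 passed the study's threshold. The fewest came from the 2 CPM filter, which left *Mx1*, *Mx2* and *Ifitm1* untested. The median log2 fold change of the 10 (1.87) was 2.95 with a pseudocount of 0.1, 1.42 with 1 and 1.62 with quantile normalization. It was 3.24 with edgeR, 3.29 with DESeq2 and 1.69 to 2.02 with 1 library left out. With the 2 CPM filter the median was 2.64, over the smaller set without *Mx1*, *Mx2* and *Ifitm1*. The log2 fold change of *Mx1*, a low gene, ran from 0.93 to 5.63 with the pseudocount and the count models. *Ifitm1* turned to -0.10 with quantile normalization, and the cause was not tested. With library totals alone, 4992 genes were higher and 1929 lower, and 8 instead of 13 genes of the lists were lower. With 1 library left out, 2130 (without senescent replicate 2) to 3405 genes were higher and 2416 to 3875 lower. The replicate block, which pairs same-numbered libraries, left the fold of *Ifitm2* at 0.21 with an adjusted p of 0.0428 (limma) and changed no other call among the 10. It gave 2 lower genes in place of 1 among the receptors and JAK-STAT genes and among the feedback inhibitors. Depth limits *Ifitm1* and, in control libraries, *Mx1*, *Mx2* and *Rsad2*.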
